A study of Mus musculus with 8 samples.

Results

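S100 proteins are small calcium sensors that fold around EF-hands, the helix-loop-helix motif that holds a calcium ion, and most of them work as dimers that bind a target protein. They act on the cytoskeleton, on membranes and, when secreted, on cell surface receptors, and they are prominent in fibroblasts and other mesenchymal cells, the lineage that includes preadipocytes. The genes described here are the 7 S100 family members with an entry in the deposited table of cluster markers, namely S100a1, S100a4, S100a6, S100a10, S100a11, S100a13 and S100a16. They were chosen by name, and they are 7 of the 3903 gene symbols in the table. Of the other family members looked up, S100a3, S100a5, S100a7a, S100a8, S100a9, S100a14, S100b, S100g and S100z, 0 had an entry.

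The cells were preadipocytes from the inguinal white fat of C57BL/6 mice, either wild type (WT) or Hmgn1-/- and Hmgn2-/- (double knockout, DKO). DKO mice lack a pair of proteins that bind nucleosomes. Single cells were profiled by droplet RNA sequencing before induction (day 0, WT and DKO) and at day 6 of a browning protocol (WT and DKO). There were 2 samples per genotype and day and 8 in all. The protocol starts with insulin, dexamethasone, IBMX, T3 and rosiglitazone, which drive white preadipocytes towards brown-like adipocytes. By the study's methods, a maintenance medium with insulin and T3 replaces this mix before day 6. The table pools the cells of the 8 samples and describes 12 clusters, numbered 0 to 11, so it gives no value for a genotype, a day or a replicate. The genotypes and the days could therefore not be compared, no value has an error from replicates, and the Hmgn genes could not be checked per sample. The number of cells and the reads behind each value are unknown.

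The value described throughout is detection, the percent of cells in which at least 1 transcript of the gene was counted, in the cells of a cluster and in all other cells. Detection is not a level. In droplet data, free RNA can also add a transcript to a cell that does not express the gene, and its part in these values was not tested. The adipocyte gene Fabp4 is 1 measure of how widely a gene of another cell state was counted. It was detected in 52.6% to 59.9% of the cells of clusters 0, 1, 3 and 5, where Cd36 was rare. Cd36 was also rare in clusters 9 and 10, where Fabp4 was at 67.7% and 19.7%. Other adipocyte genes varied in clusters 0, 1, 3 and 5. Adipoq and Plin1 were at 1.2% to 2.7% and 0.6% to 1.9%. Scd1 and Lpl were at 39.7% to 52.0% and 88.4% to 98.5%. A gene near 100% can differ widely in its mean level between clusters without a difference in detection, and a gene seen in fewer cells can still have a high mean. Only genes that passed the authors' minimums for a cluster have an entry there, and a gene without one is not at 0. The entries that exist were selected for a difference. A difference of at least 10 percentage points is called higher or lower below. With 1 pooled value per cluster there was no test.

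Markers of the adipocyte lineage placed the clusters. Cd36, a fatty acid transporter of adipocytes, was detected in 1.0% to 3.5% of the cells of clusters 0, 1, 3, 5, 9 and 10 and in 68.4% to 99.8% of the cells of clusters 2, 4, 6, 8 and 11, and it had no entry for cluster 7. The proliferation gene Mki67 was detected in 78.6%, 92.0% and 91.2% of the cells of clusters 5, 6 and 9. Most genes listed for clusters 4 and 10 were detected in few of their cells, with a median detection over their entries of 10.8% and 8.1%, against 63.0% and 62.4% in all other cells. Some adipocyte genes were an exception in cluster 4, with Fabp4 and Scd1 the most common, in 98.5% and 97.7% of the cells. Others of the adipocyte list, Cidec, at 15.5%, and Pparg, were detected in few of its cells. Cidec was still more common there than in all other cells, as were Adipoq, Plin1 and Cd36. Pparg and Lpl were slightly less common there than in all other cells, at -4.6 and -3.8 percentage points. What the low detection of most genes contributes to the S100 values in these clusters was not tested. The immune, endothelial and glial marker lists had 0 entries.

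The 7 genes lie on mouse chromosome 3 (coordinates are mm10, the build named for the study, from GENCODE M21) in 2 stretches. S100a1 (90511034 to 90514392, minus strand), S100a13 (90514435 to 90524581), S100a16 (90537254 to 90543151), S100a4 (90603771 to 90606045) and S100a6 (90612882 to 90624181) fall within 113 kb. S100a11 (93520488 to 93526287) and S100a10 (93555080 to 93564643) lie further along the chromosome, with 28792 bases between them. Each of the 7 is protein-coding, and all but S100a1 are on the plus strand. A processed copy of S100a11, S100a11-ps, is annotated by RefSeq on chromosome 12, so reads of S100a11 can be shared with it.

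S100a1 and S100a13 are arranged head to head, which is why the sequence between them is shown. In GENCODE only 42 bases separate their starts, chr3:90514393-90514434, read on the plus strand, so that S100a13 begins after its last base and S100a1 runs the other way before its first. In RefSeq the annotated gene bodies overlap here, since S100a13 is given a start at 90514233, within S100a1.
S100a1 to S100a13: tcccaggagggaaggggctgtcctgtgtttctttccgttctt

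The 250 bases before the start of S100a4 and of S100a11 are shown because S100a4 had the widest range of detection and the S100a11 window holds the letters of a known site more than once. Both are from RefSeq on GRCm38.p6, plus strand, chr3:90603520-90603769 for S100a4 and chr3:93520246-93520495 for S100a11. Capitals mark TATAAA in S100a4 and TGANTCA, the letters of the AP-1 site, in S100a11, searched on both strands.
S100a4: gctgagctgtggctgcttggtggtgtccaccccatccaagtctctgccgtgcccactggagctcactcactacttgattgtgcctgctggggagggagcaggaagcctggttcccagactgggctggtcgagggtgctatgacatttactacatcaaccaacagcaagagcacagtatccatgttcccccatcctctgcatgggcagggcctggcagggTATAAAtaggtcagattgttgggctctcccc
S100a11: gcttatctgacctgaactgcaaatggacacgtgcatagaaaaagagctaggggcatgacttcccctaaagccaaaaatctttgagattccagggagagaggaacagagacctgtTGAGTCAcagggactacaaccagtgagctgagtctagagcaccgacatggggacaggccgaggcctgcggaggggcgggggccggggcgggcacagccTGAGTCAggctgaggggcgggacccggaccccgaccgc

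Windows of this kind were matched for 6 of the 7 genes, with 2 for S100a16 and 7 in all. TATAAA occurred in the S100a4 window alone among these 7, from 31 to 26 bases before the start, and in 12.4% of 32851 windows of the same length over all genes. TGANTCA occurred 2 times in the S100a11 window, from 136 to 130 and from 38 to 32 bases before the start, and 1 time in 1 of the S100a16 windows, at 192 to 186 bases, and in 6.7% of all windows. CCAAT was found only in the S100a6 window, against 33.8% of all windows. GGGCGG was found 3 times in the S100a11 window and 1 time in the S100a16 window with TGANTCA, against 32.7% of all windows. The windows of S100a1 and S100a13 held none of these letters. A match gives the letters only.

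The 7 genes had 49 entries. Detection was called higher in 12 of them and lower in 19, while 18 lay within 10 percentage points. Among all 13337 entries of the table, 40.0% were called higher and 37.4% lower. The median difference was 3.7 percentage points over the S100 entries and 2.7 over all entries. Of the 19 lower entries, 11 were in clusters 4 and 10, where 11 of 11 S100 entries were lower. In the other 10 clusters, 12 of 38 were higher and 8 were lower, where 50.4% of the 10547 entries of these clusters were higher and 22.4% lower.

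**Figure D1:**
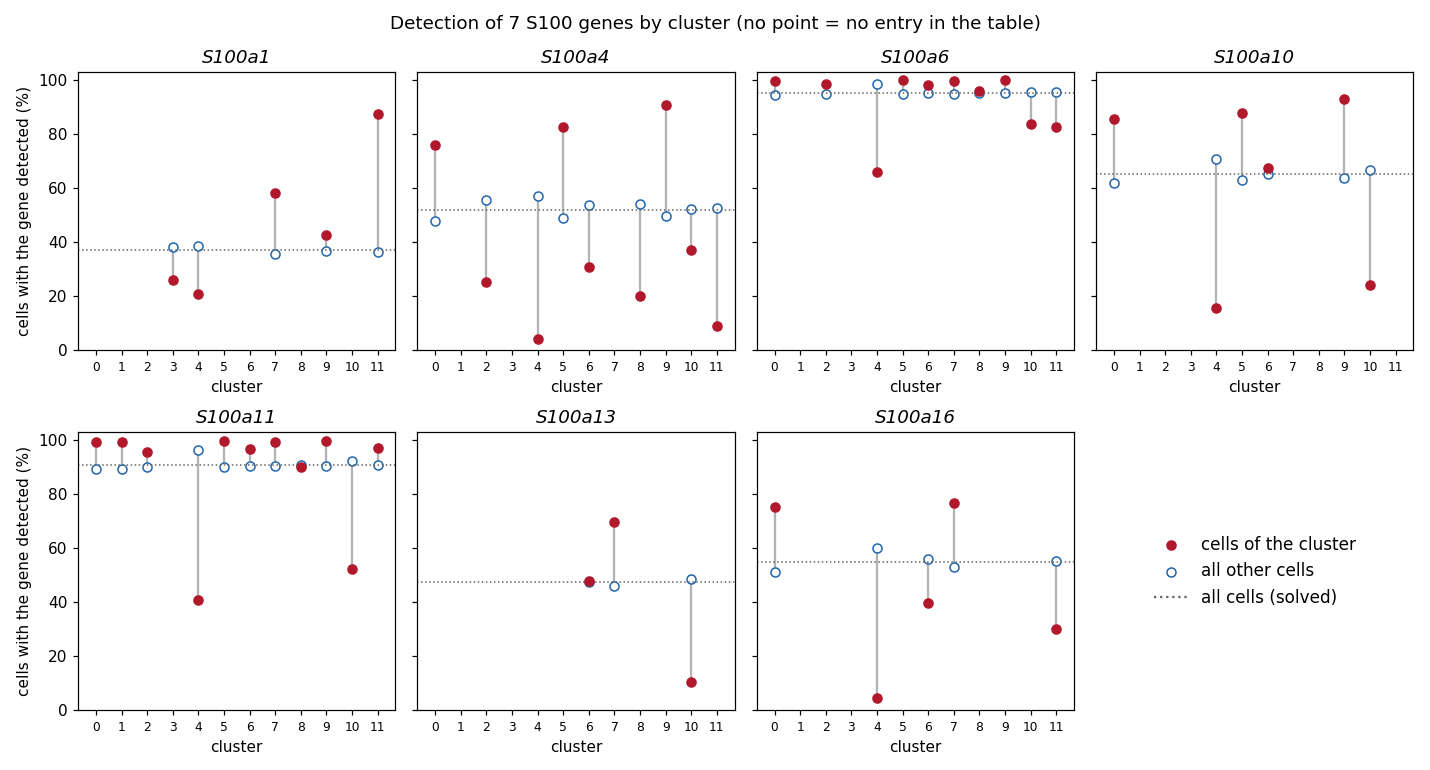
Detection of each S100 gene (percent of cells, vertical axis) in the 12 clusters (horizontal axis). Filled points are the cells of the cluster, open points all other cells, and the dotted line is the value solved for all cells. S100a4 spans 4.1% to 90.6%, while S100a6 stays at 82.7% or above outside cluster 4.

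Solved over all cells, the genes stood in the order S100a6 (95.2%), S100a11 (90.9%), S100a10 (65.3%), S100a16 (54.8%), S100a4 (51.9%), S100a13 (47.5%) and S100a1 (37.0%). For each gene, the values from its separate clusters agreed within 0.0764 percentage points, less than any gap in this order. That spread is the rounding of the table and does not hold any error between samples. The order is one of detection and does not compare amounts of transcript.

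S100a4, known as fibroblast-specific protein or metastasin, binds the heavy chain of non-muscle myosin. It was present in 90.6% of cluster 9 cells, 82.6% of cluster 5, 75.9% of cluster 0, 36.9% of cluster 10, 30.8% of cluster 6, 25.1% of cluster 2, 20.1% of cluster 8, 9.0% of cluster 11 and 4.1% of cluster 4. In all other cells the value lay between 47.9% and 57.0%. Its range of 86.5 percentage points was the widest of the 7 genes, and it was called in each of its 9 entries, higher in 3 and lower in 6. Clusters 1, 3 and 7 have no entry, and their mean, solved from the other values, was 64.8%.

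The clusters with few S100a4-positive cells were those rich in Cd36. S100a4 lay between 36.9% and 90.6% in the 4 listed clusters where Cd36 was rare, and between 4.1% and 30.8% in the 5 where it was common, with no overlap. The same separation in this direction was found for 32.7% of the 572 genes with at least 3 entries on each side, so it is not particular to S100a4. It did not hold for S100a6 or S100a11, whose ranges overlapped. Lpl, a lipase of adipocytes, did not part the clusters in this way, at 88.4% in both cluster 0 and cluster 9.

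**Figure D2:**
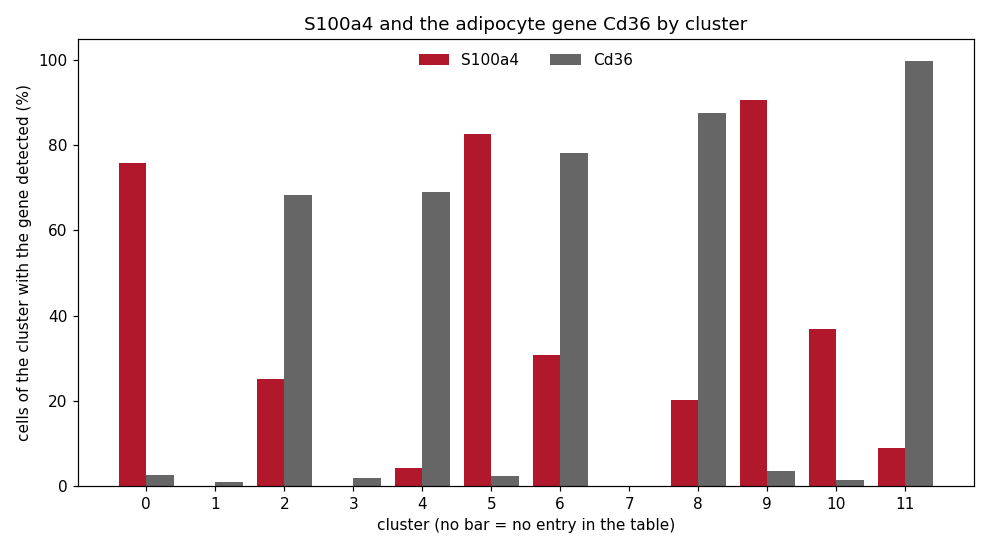
Percent of cells with S100a4 (red) and Cd36 (grey) detected, in each cluster, from 0. The 5 clusters with Cd36 at 68.4% or more have S100a4 at 30.8% or less.

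The cycling clusters parted in the same way. Clusters 5 and 9, where Cd36 was detected in 2.4% and 3.5% of the cells, had S100a4 in 82.6% and 90.6%. Cluster 6, with Cd36 in 78.2% of its cells, had S100a4 in 30.8%, with Mki67 at 92.0%. S100a10 had a smaller step, at 87.7% and 92.8% against 67.3%. Its differences from all other cells were 24.6, 29.2 and 2.2 percentage points in clusters 5, 9 and 6. The medians over all entries of these clusters were 25.9, 24.0 and 10.7. A smaller difference in cluster 6 is therefore not particular to S100a10. S100a6 was at 98.0% or more in the 3 clusters.

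S100a4 also stood out among the entries of single clusters. In cluster 11, only 2.4% of the entries had a more negative difference than its -43.6 percentage points. The share was 4.1% in cluster 2, 3.9% in cluster 6 and 5.6% in cluster 8. In cluster 4 S100a4 did not stand out, with 40.0% of the entries below its difference of -52.9. In cluster 10 its difference of -15.5 was less negative than those of most other genes, with 95.8% of the entries below it. S100a6, at -11.9, was above 97.9% of the entries there.

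S100a6, or calcyclin, was detected nearly everywhere. It was found in every cell of cluster 5 at the rounding of the table, in 99.9% of cluster 9, 99.8% of cluster 7, 99.7% of cluster 0, 98.5% of cluster 2, 98.0% of cluster 6 and 95.8% of cluster 8. The exceptions were cluster 10 with 83.7%, cluster 11 with 82.7% and cluster 4 with 65.8%. These were its 3 lower entries, and none was higher, since the other cells were at 94.5% or more in each comparison. The genes listed for cluster 11 were otherwise well detected, with a median of 66.4% over its entries against 48.7% elsewhere. Clusters 1 and 3 have no entry, and their mean solved to 99.8%.

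S100a11, which binds annexin A1, had entries in 11 clusters. Cells with S100a11 made up 95.8% to 99.8% of clusters 0, 1, 2, 5, 6, 7, 9 and 11, 90.2% of cluster 8, 52.4% of cluster 10 and 40.8% of cluster 4. Clusters 4 and 10 were its 2 lower entries, at -55.4 and -39.8 percentage points. Its single higher entry, 99.5% against 89.5% in cluster 0, was at the threshold, and clusters 1, 5, 7 and 9 lay just under it at 9.8, 9.7, 9.1 and 9.2 percentage points. In cluster 11 S100a11 was at 97.1%, while S100a4 was at 9.0%. For cluster 3, the only cluster with no entry, the solved value was 97.4%.

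S100a10, also called p11, has lost the binding of calcium and forms a complex with annexin A2 at the plasma membrane. S100a10 was found in 92.8% of cluster 9 cells, 87.7% of cluster 5 and 85.5% of cluster 0, each higher than the other cells, which were at 61.9% to 63.6%. Cluster 6 was at 67.3% against 65.1%. It was lower in cluster 10 (24.1%) and cluster 4 (15.4%). The 6 clusters with no entry had a solved mean of 64.3%.

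S100a1, best known from heart and skeletal muscle, was most often detected in cluster 11, where S100a4 was at 9.0%. Its detection there was 87.4%, against 36.2% in all other cells. Cluster 7 was also higher, with 58.0% against 35.5%, and cluster 9 was at 42.6% against 36.6%. Clusters 3 (26.0%) and 4 (20.9%) were lower. In cluster 4 the difference of -17.8 percentage points was less negative than in 86.5% of the entries of that cluster. The other 7 clusters solved to a mean of 37.3%. Cd36 does not order these values, since cluster 4 and cluster 11 are both rich in it and hold the lowest and the highest S100a1 detection of the 5 listed.

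S100a13, which takes part in the release of fibroblast growth factor 1 without a signal peptide, had only 3 entries. Its detection was 69.8% in cluster 7 against 45.9%, 47.9% in cluster 6 against 47.5%, and 10.6% in cluster 10 against 48.7%. The other 9 clusters had a solved mean of 47.1%. In cluster 7, S100a13 and its head-to-head neighbour S100a1 were both higher, by 23.9 and 22.5 percentage points. In cluster 11, where S100a1 was at 87.4%, S100a13 has no entry.

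S100a16, a widely expressed member with a described part in adipocyte differentiation, reached 76.7% in cluster 7 and 75.2% in cluster 0, both higher than the other cells (53.2% and 51.3%). It was lower in cluster 6 (39.6%), cluster 11 (30.2%) and cluster 4 (4.5%), each rich in Cd36. Most genes listed for cluster 4 were lower there too, so that value is not particular to S100a16. Clusters 2 and 8, also rich in Cd36, have no entry for S100a16, and cluster 7 has none for Cd36. Whether S100a16 follows Cd36 more than other genes do was not tested. The 7 clusters with no entry had a solved mean of 58.0%.

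By cluster, cluster 0 had 4 of 5 listed S100 genes higher, where 66.0% of its 694 entries were. For cluster 7 this was 3 of 5, against 59.8% of all entries, with S100a1, S100a13 and S100a16 above at least 85.0% of the entries. In clusters 5 and 9, S100a4 and S100a10 were higher, 2 of 4 and 2 of 5, against 72.1% and 76.9% of all entries. S100a6 and S100a11 were at 99.6% or more in both clusters and at 90.1% or more in the other cells, which left them no room for a higher call. In cluster 11, 1 of 5 was higher (44.4% of all entries) and 3 of 5 were lower (28.7%), with a median of -12.7 percentage points over the S100 genes and 6.6 over all entries.

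Lower entries were 2 of 6 in cluster 6 (14.9% of all entries), S100a4 and S100a16. They were 1 of 3 in cluster 2 (34.5%) and 1 of 3 in cluster 8 (45.6%), S100a4 in each, and 1 of 1 in cluster 3 (28.3%), S100a1. In cluster 4, 6 of 6 were lower, as were 92.8% of all entries, and in cluster 10, 5 of 5 against 98.5%, so both counts were near the background. Cluster 1 listed S100a11 alone.

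**Figure D3:**
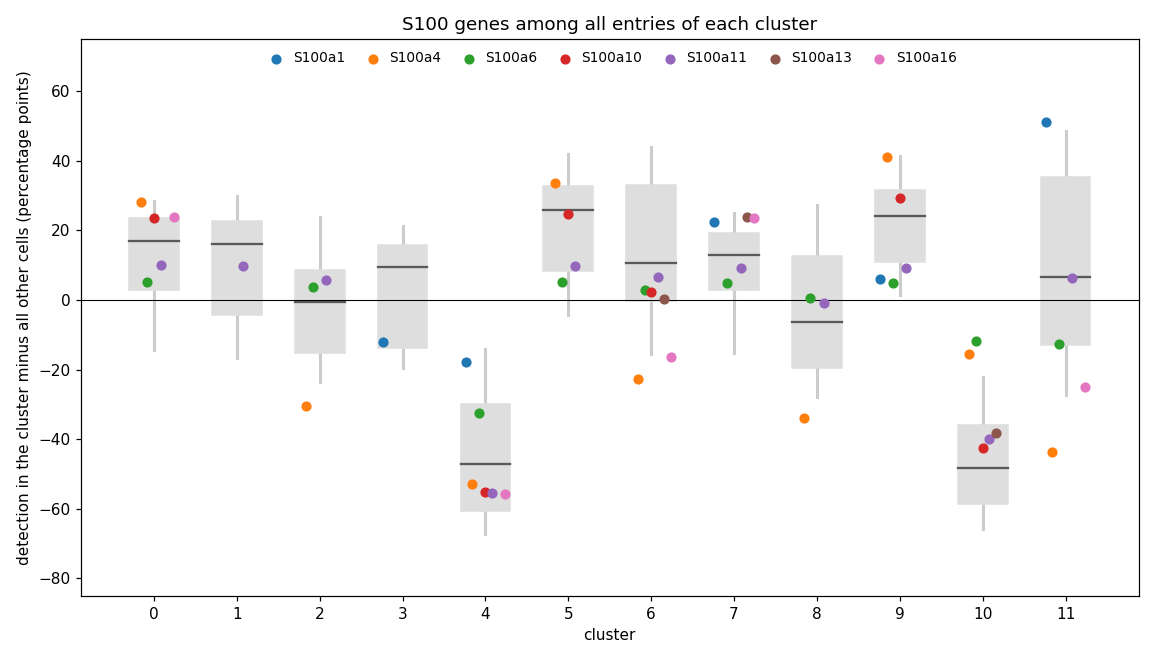
Detection in the cluster minus all other cells (percentage points, vertical axis) for each S100 gene (coloured points) in the 12 clusters. Grey boxes hold the middle 50% of all entries of the cluster, with the median as a line and bars from the 10th to the 90th percentile. S100a4 is below the bar in clusters 2, 6, 8 and 11, S100a16 is below it in cluster 6, and above it are S100a1 in cluster 11 and S100a4 and S100a6 in cluster 10.

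The order of the clusters was similar but not the same between members. Over the 9 clusters listed for S100a4 and S100a6, the Spearman correlation of detection was 0.87 and Pearson's r was 0.66, and over the 7 clusters left without clusters 4 and 10 they were 0.93 and 0.67. S100a6 and S100a11 had 0.85 and 0.86 over 10 clusters, and 0.81 and 0.26 over the 8 without clusters 4 and 10. For S100a4 and S100a11 they were lower over all shared clusters, at 0.72 and 0.48 over 9 clusters. Without clusters 4 and 10 they were 0.75 and 0.72 over 7 clusters. Pearson's r was then above the 0.67 and 0.26 of the pairs before. S100a10 had a Spearman correlation of 0.94 with each of S100a4, S100a6 and S100a11 over 6 clusters. Pearson's r for these pairs was 0.89, 0.93 and 0.97. Cluster 10 ranked above clusters 2, 6, 8 and 11 for S100a4 and below them for S100a11. The points share libraries, depth and cells, and S100a6 and S100a11 vary within a few percentage points in most of them, so these values are a description.

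The genes with the most similar detection profile were sought for each member. For S100a4 they were Myof, a membrane repair protein, with a mean absolute difference of 4.09 percentage points, and Ddah1, which breaks down methylarginines, with 4.34, both over 8 clusters. For S100a11, Actg1, a cytoplasmic actin, differed by 1.48 over 10 clusters. S100a6 was nearest to Fth1 (3.0 over 9) and Actb (3.13 over 10), the ferritin heavy chain and the other cytoplasmic actin. S100a10 was nearest to Rala and Mrpl54 (2.76 over 5 and 2.93 over 6), S100a16 to Nectin2 and Bst2 (0.98 over 4 and 1.66 over 5), and S100a1 to mt-Nd6 and Serpina3n (7.17 and 7.83 over 4). S100a13, with 3 entries, was too rarely listed for this. Each difference covers only the clusters listed for both genes. In clusters 2, 6 and 8, where S100a1 has no entry, mt-Nd6 was at 87.6% to 93.3% and Serpina3n at 89.7% to 91.3%. The solved mean of S100a1 over its 7 clusters without an entry was 37.3%.

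Of 18 genes known as binding partners, receptors or cargo of S100 proteins, 11 had an entry, in 66 entries of which 28 were higher and 20 lower (40.0% and 37.4% of all entries). The receptors Ager and Tlr4 and the cargo genes Fgf1 and Il1a had none. Outside clusters 4 and 10, 28 of 51 entries were higher and 5 lower, against 50.4% and 22.4% of all entries there. Anxa2, the partner of S100a10, was detected in 97.8%, 98.7% and 99.1% of the cells of clusters 0, 5 and 9, the clusters with the most S100a10 of the 6 listed. Anxa1, the partner of S100a11, was detected in 59.0% of cluster 2 and 63.6% of cluster 8, both lower than elsewhere (77.0% and 75.5%). S100a11 was at 95.8% and 90.2% in these clusters. In clusters 6 and 11 Anxa1 was at 78.8% and 87.2%, above the other cells (74.5% and 74.6%).

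Myh9, the myosin heavy chain bound by S100a4, was at 97.8% to 99.2% in clusters 0, 5 and 9 and at 52.5% in cluster 11. In cluster 11 its difference was -29.3 percentage points, and that of S100a4 was -43.6. In clusters 2 and 6, where S100a4 was lower by 30.5 and 22.8 percentage points, Myh9 was within 10 (-2.2 and 7.3). In cluster 8 both were lower, S100a4 by 33.8 and Myh9 by 13.2 percentage points. Ahnak, a large scaffold that binds the S100a10 complex, was at 97.9% to 98.5% in clusters 0, 5 and 9, against 80.8% to 82.3% in all other cells. Its highest detection, 98.9%, was in cluster 1, where S100a10 has no entry. Anxa5 was at 96.7% to 98.2% in clusters 0, 5 and 9, against 79.9% to 81.4% in all other cells. Cacybp, the partner named for calcyclin, was higher in clusters 5, 9 and 11, with 92.6%, 93.0% and 93.9%, although S100a6 was at 82.7% in cluster 11.

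Of 26 genes for other EF-hand proteins, 22 had an entry, with 39 of 138 entries higher and 48 lower, and 39 of 108 higher and 18 lower outside clusters 4 and 10. The shares over all entries were 40.0% and 37.4%, and 50.4% and 22.4% outside clusters 4 and 10. Rcn1 and Rcn3, calcium-binding proteins of the secretory pathway, were found in 32.2% and 27.9% of cluster 11 cells against 74.2% and 82.2% of the others. Calm2 was at 91.9% in cluster 11, and Calm3 at 65.6% against 73.7%. Myl12a, a regulatory light chain of myosin, was at 98.6%, 99.4% and 99.2% in clusters 0, 5 and 9. It was at 71.1% and 73.0% in clusters 2 and 8. In clusters 6 and 11 it was at 85.9% and 87.8%, above the other cells (81.4% and 81.6%). Capns1, the small calpain subunit, was at 87.8% in cluster 11 against 78.6%.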

How the data were processed

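Single-cell libraries of 8 samples in 4 groups of 2 (grouped by their titles) were made on the Chromium platform with a 3′ chemistry. Per the labels and the study's methods, the authors mapped reads to mm10 with Cell Ranger 6.0.0, aggregated the captures with equalized read depth, removed cells with fewer than 500 genes or over 10% mitochondrial expression, and log-normalized and clustered the cells in Seurat. Immune, glial and endothelial cells were removed before the last clustering. The study's methods name no doublet removal, and doublets could not be looked for here. Each cluster was compared with the remaining cells with MAST.

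The table holds 13337 entries. The authors deposited 2 detection fractions per entry, in the cluster and in all other cells, which are printed here as percents. The fold changes and p-values, which are the authors' own comparisons, were not used. The table was not filtered further. Its entries are limited by the authors' minimums, a detection of 10% in either group and a log fold change of 0.25 in absolute size, so what is listed depends on columns not used here. The unused columns of values per sample numbered 0. Dates stood in place of 7 symbols, and these were not named.

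The cluster shares were solved by least squares from the 10 genes listed for every cluster, since the share-weighted mean of both fractions must be the same from each cluster, and tested on simulated data. They gave the detection over all cells and the mean over clusters without an entry. Like genes are the 2 with the smallest mean absolute difference, among genes listed in at least 80% of a member's clusters and at least 4. A like gene of S100a11 is not reported here. Apart from Myl9, the genes given values from the partner and EF-hand lists are among the 6 of each with the largest absolute difference in any cluster. For each of these that difference was in cluster 4, where most listed genes were detected in few cells. The choice therefore does not pick the genes that differ most in the other clusters. Chp1, an EF-hand gene at 98.4% in cluster 11 against 48.6% in all other cells, is not among them. Cd36 and the other markers came from lists. The grouping by Cd36 and the promoter letters were chosen after the values were seen. Members and lists were chosen with earlier results of these data known. Python 3.11.15, numpy 2.4.6, pandas 2.3.3 and matplotlib 3.10.9 were used.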

Additional observations from a re-analysis of the deposited data

How the results depend on the processing

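No paired analysis was possible because each value pools the cells of the 8 samples, and for the same reason no replicate could be left out. The planned identity between S100 proteins was not run. Depth and cell number are unknown, so their effect on detection was not measured. With a threshold of 5 percentage points, 22 S100 entries were higher in place of 12. The thresholds of 20 percentage points and of a ratio kept both counts within 1.5 times, as did 5 for the lower count. Ordering by the difference moved the highest cluster of S100a11 and S100a16 to cluster 0. For S100a6 it tied clusters 0 and 5, both at 5.2 percentage points. The log odds moved 0 of 14. Without clusters 4 and 10, the cluster with the lowest detection became 3 for S100a1, 11 for S100a4, S100a6 and S100a16, 6 for S100a10 and S100a13, and 8 for S100a11, by construction. Reading the median of the other cells as the detection over all cells gave 36.6% for S100a1, 52.6% for S100a4, 95.0% for S100a6, 64.4% for S100a10, 90.4% for S100a11 and 55.1% for S100a16. Shares solved from 2692 genes changed 1 of 14 values, the mean of S100a10 where it has no entry, from 64.3% to 64.2%. Of the 12 like genes, 3 were found again with Pearson's correlation and 3 without clusters 4 and 10, so the like genes depend on the measure. The cause was not tested.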

Other observations

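Myl9, a regulatory light chain of smooth muscle and non-muscle myosin, is a member of the EF-hand list. It was picked out after its values had been seen, because it was rarer than S100a4 in each cluster rich in Cd36. It was detected in 89.0%, 90.1% and 88.1% of the cells of clusters 0, 5 and 9, in 72.3% and 69.9% of clusters 1 and 7, and in 42.6% of cluster 3. In clusters 2, 4, 6, 8 and 11 it was detected in 1.9%, 0.8%, 3.1%, 0.5% and 0.7% of the cells. S100a4 in these 5 clusters lay between 4.1% and 30.8%. The 2 genes are not listed for the same clusters where Cd36 was rare. Myl9 has no entry for cluster 10, where S100a4 was at 36.9%, and S100a4 has none for clusters 1, 3 and 7.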
